A study of Mus musculus with 24 samples.

Results

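IGF1 was compared with vehicle in infarcted mouse heart tissue after 48 h of reperfusion. The 8 samples whose titles name the infarct area, 48 h and 1 of the 2 treatments were taken, 4 per treatment, out of 24 in the series. The IGF1 group consisted of male C57BL6/J mice whose left anterior descending coronary artery was closed for 45 min and reopened. These mice received 40 ng/g of mature recombinant IGF1 under the skin when reperfusion began, and 1 µg/g per day from a micro-osmotic pump laid out to run for 3 days, so that the pump was still within its running time at 48 h. The vehicle group consisted of male C57BL6/J mice whose labels give the same 45 min of ischemia with PBS and BSA in place of the hormone. The design text of the series calls the controls sham-operated, and the sample labels were followed here. Total RNA was taken from the anterior wall within the area at risk and put on 1 Cy3-labelled array per sample. The labels give neither ages nor animals, and a p-value here therefore rests on the spread between samples, which may be technical. The other 16 arrays, IGF1 and vehicle at 24 h and 168 h, entered the fit and served for comparison.

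Insulin-like growth factor 1 acts through a receptor tyrosine kinase, IGF1R, that drives the PI3K-AKT and ERK pathways and favours survival and growth of heart muscle cells. A reperfused infarct is first filled by neutrophils and monocytes and then by macrophages and lymphocytes, which clear dead muscle and start scar formation. Cytokines of the interleukin 6 family carry signals between these cells and the heart muscle: each binds a receptor complex that contains gp130, encoded by Il6st, and activates the transcription factor STAT3.

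Levels are log2 processed signals after subtraction of each array's own 75th percentile, so that 0 is that percentile. A level of 1 gene cannot be set against that of another, since probes differ in brightness. Differences are IGF1 minus vehicle on this log2 scale, with the standard error (SE) of the fit. On the 8 arrays, 55.8 to 60.4% of spots were well above background with IGF1 and 53.3 to 58.8% with vehicle. Genes of the sarcomere and Z-disc, the contractile machinery of heart muscle, averaged 6.33 to 6.42 on the IGF1 arrays and 6.36 to 6.69 on the vehicle arrays, where the mean of all 15875 genes was 0.47 to 0.51 and 0.48 to 0.54. The sarcomere list had the higher signal on all 8 arrays. As probes differ in brightness, this is not a measure of transcript amount. Because this is whole tissue, fewer cells of a type and less RNA per cell cannot be told apart in any result below.

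Across the genome, limma's test with Benjamini-Hochberg adjustment called 2 genes lower with IGF1 (0.0126% of genes tested) and 0 higher (0%). Both were immune genes, the cytokine Il6 and the lymphocyte surface protein gene Cd7. At an unadjusted p under 0.05, 798 genes were lower (5.03%) and 612 higher (3.86%). All 4 IGF1 arrays lay below all 4 vehicle arrays for 528 genes (3.33%), and above them for 407 (2.56%). These last shares are the background against which the members of each gene list are read below, and genes that did not pass the adjusted test are given as values only.

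**Figure D1:**
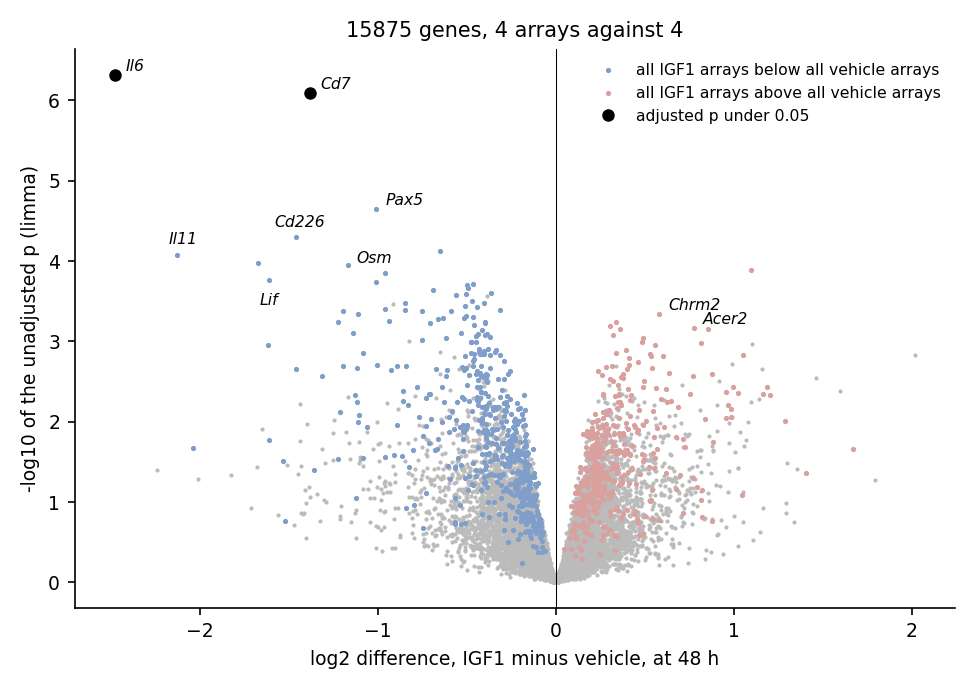
Each point is 1 of 15875 genes, with the log2 difference (IGF1 minus vehicle at 48 h) on the horizontal axis and -log10 of limma's unadjusted p on the vertical axis. Il6 and Cd7, in black, are the 2 genes past an adjusted p of 0.05, and the 528 genes with all IGF1 arrays below all vehicle arrays are blue and the 407 in the opposite order are red.

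Among the 8 ligands of the interleukin 6 family, 4 had all IGF1 arrays below all vehicle arrays, and their promoters are shown first because these genes were low together. RefSeq's promoter table (GRCm38.p6) held 3 of the 4, Il6, Il11 and Lif. The 250 bases before each start are printed 5′ to 3′ on the strand of the gene, and capitals mark matches on either strand to 4 motifs: GGNNTTTCC (NF-kB-type), TGANTCA (AP-1-type), TTCNNNGAA (STAT-type) and TTGCNNAAT (C/EBP-type). TGANTCA and TTCNNNGAA read alike on both strands. Il6 lies on the plus strand at chr5:30012864-30013113, Il11 on the minus strand at chr7:4782858-4783107 (the first of 2 entries) and Lif on the plus strand at chr11:4257318-4257567.
Il6: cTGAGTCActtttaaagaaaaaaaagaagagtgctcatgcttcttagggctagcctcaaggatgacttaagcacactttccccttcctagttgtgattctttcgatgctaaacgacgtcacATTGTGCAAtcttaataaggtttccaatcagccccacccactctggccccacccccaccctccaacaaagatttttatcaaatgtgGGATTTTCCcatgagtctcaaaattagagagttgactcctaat
Il11: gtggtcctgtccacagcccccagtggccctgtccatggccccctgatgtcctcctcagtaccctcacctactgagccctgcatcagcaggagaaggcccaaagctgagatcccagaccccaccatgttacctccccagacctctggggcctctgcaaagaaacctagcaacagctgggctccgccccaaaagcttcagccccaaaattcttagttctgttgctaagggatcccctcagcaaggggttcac
Lif: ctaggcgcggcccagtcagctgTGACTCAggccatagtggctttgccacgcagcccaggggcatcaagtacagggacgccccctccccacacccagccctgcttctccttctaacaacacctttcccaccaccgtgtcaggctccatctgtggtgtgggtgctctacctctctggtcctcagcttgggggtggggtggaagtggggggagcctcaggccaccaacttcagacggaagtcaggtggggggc
In the Il6 promoter the NF-kB-type match begins 43 bases before the start, the C/EBP-type match 129 bases and the AP-1-type match 249 bases before it. The Lif promoter held 1 AP-1-type match, 228 bases before the start, and the Il11 window held none of the 4 motifs. Of 32851 mouse promoter windows of the same length, 4.93% held the NF-kB-type, 6.75% the AP-1-type, 7.02% the STAT-type and 2.11% the C/EBP-type motif. A match describes the letters of the window and says nothing about binding in these hearts.

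Il6 encodes the founding cytokine of the family, released by macrophages, fibroblasts and endothelial cells. Its level was 2.12, 0.81, 0.84 and -0.20 on the IGF1 arrays, against 3.42, 3.49, 3.44 and 3.15 on the vehicle arrays. The vehicle arrays lay close together and the IGF1 arrays spread over more than 2 units, and the groups did not overlap. Il6 fell 5.58-fold (log2 -2.48, SE 0.34, adjusted p = 0.00648). A second kept probe for Il6 gave -2.42. The slide that carried 2 arrays of each treatment gave -1.99 and the slide with 2 IGF1 arrays and 1 vehicle array gave -3.12. The call was lost when the 8 arrays of 48 h were fitted alone (adjusted p = 0.326) and when only the 7 arrays on the slides that held both treatments were fitted with slide as a block (0.376), and its adjusted p lay between 7.29e-05 and 0.376 across 23 alternatives.

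Il11, whose product signals to fibroblasts and stromal cells, stood at 0.26, -1.62, -1.98 and -1.52 with IGF1, against 1.12, 1.43, 0.65 and 0.47 with vehicle. IGF1 replicate 1 was again the highest of its group, and the groups did not overlap. The difference of -2.13 (SE 0.44) did not pass (adjusted p = 0.209). Osm encodes oncostatin M, a product of macrophages and neutrophils that acts on heart muscle cells. It stood at -0.55, -0.65, -0.44 and -1.26 with IGF1 and at 0.61, 0.20, 1.21 and -0.25 with vehicle, with no overlap. Its difference was -1.17 (SE 0.24, adjusted p = 0.209). Lif encodes leukemia inhibitory factor, which protects heart muscle cells in culture. It was not well above background on any of the 4 IGF1 arrays (-4.41, -5.03, -5.29 and -5.12) and was on all 4 vehicle arrays (-3.41, -3.48, -3.35 and -3.15). Against the lowest measurable signal Lif was at least 2.19-fold lower (adjusted p = 0.209), a bound that holds for the processed signal: with normexp background correction its log2 difference was -0.63, against -1.61.

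With slide as a fixed block, in the same fit over 24 arrays, Osm and Il11 passed (adjusted p = 0.0344 and 0.0496), whereas Lif did not. With slide as a random block neither Osm nor Il11 nor Lif passed (adjusted p = 0.0754 for each). Il11 also passed without IGF1 replicate 1 (0.0103) and Osm without vehicle replicate 4 (0.0425). Across the alternatives Il11 had adjusted p-values between 0.0103 and 0.541, Osm between 0.0344 and 0.541, and Lif between 0.072 and 0.541. In all, 56 of 15875 genes passed with slide as a fixed block, 54 lower and 2 higher with IGF1. The arrays of 48 of them did not overlap, where 3.33% of all genes were lower and 2.56% higher without overlap. Genes called on the same arrays tend not to overlap, so this count is no separate evidence. With slide as a random block 2 genes passed. The other 4 ligands differed little. Clcf1, whose product activates the receptor of ciliary neurotrophic factor, had a difference of -0.41 and Il27, a cytokine of macrophages and dendritic cells, of -0.11. Ctf1, which encodes cardiotrophin 1, had -0.10. Cntf, which encodes ciliary neurotrophic factor, had 0.20 (SE 0.17) and was the only ligand with all IGF1 arrays above the vehicle arrays. Over the 8 ligands the median difference was -0.79, where that of all genes was -0.01.

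**Figure D2:**
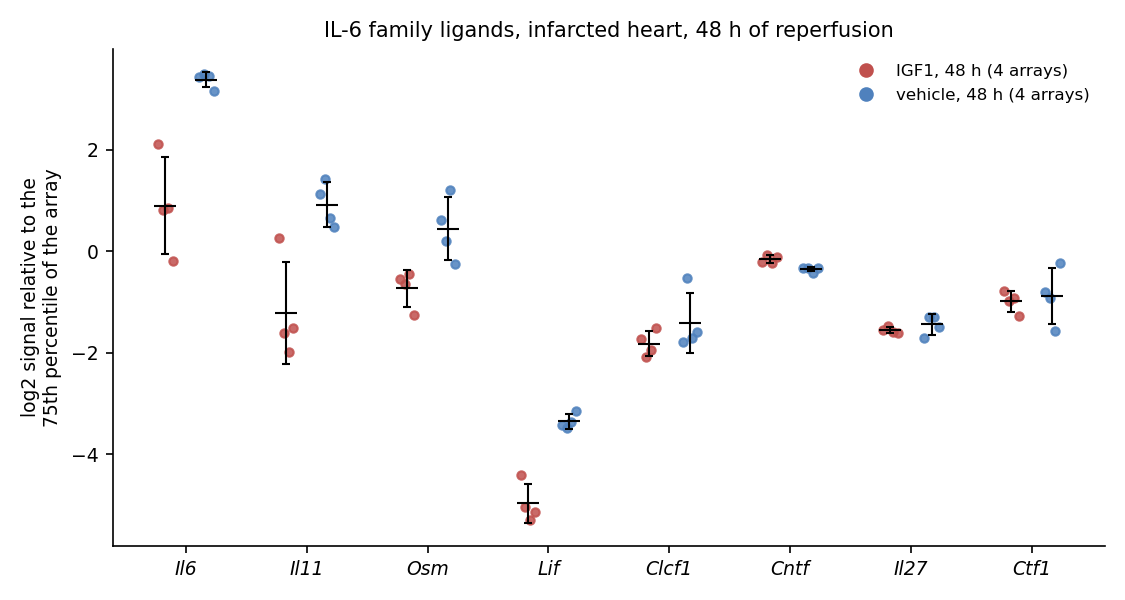
Log2 signal (0 is each array's 75th percentile) of the 8 interleukin 6 family ligands, with 1 point per array, IGF1 (red) left of vehicle (blue) and the mean with its SD in black. The 4 IGF1 arrays lie below the 4 vehicle arrays for Il6, Il11, Osm and Lif, and overlap them or lie above them for the other 4 ligands.

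The receptors of the family had differences closer to 0. Over 8 receptor genes, which include the shared chain Il6st, the differences ran from -0.67 to 0.10 with a median of -0.05, and 0 of 8 had groups that did not overlap. The lowest was Cntfr, the binding chain for ciliary neurotrophic factor (-0.67, SE 0.32, adjusted p = 0.556). The slide with 2 arrays of each treatment gave 0.03 for Cntfr and the slide with 3 arrays gave -1.60. Among 15 genes that STAT3 or the acute phase response induces, 4 were lower at an unadjusted p under 0.05 and 1 had groups that did not overlap, with a list median of -0.19. That gene was Junb, a subunit of the AP-1 transcription factor. Junb stood at 4.86, 4.51, 4.85 and 4.39 with IGF1, against 5.19, 5.19, 5.25 and 5.02 with vehicle (difference -0.51, SE 0.14, adjusted p = 0.255). Socs3, the feedback inhibitor that gp130 signalling switches on, had a difference of -0.49 (SE 0.17), the NF-kB cofactor Bcl3 of -0.40 (SE 0.15) and the transcription factor Cebpb of -0.37 (SE 0.16), each with arrays that overlapped. A second, dimmer probe for Junb gave -0.22. Of the 15 genes 5 were above 0, all with overlap, among them the iron-binding protein gene Lcn2 (0.58, SE 0.40) and Reg3b (1.05, SE 0.75), which was above background on 1 of 4 IGF1 arrays and 0 of 4 vehicle arrays.

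Inflammatory mediators outside the family were lower in places. Of 16 CXC chemokine and receptor genes, 5 had all IGF1 arrays below all vehicle arrays and 0 the reverse, with a median of -0.32. Cxcl1, Cxcl2 and Cxcl3 encode chemokines that draw neutrophils, and their differences were -0.90 (SE 0.25), -1.23 (SE 0.52) and -1.61 (SE 0.62). Cxcl1 stood at 3.12, 2.50, 2.77 and 2.20 with IGF1, against 3.31, 3.45, 3.96 and 3.45 with vehicle. The other 2 were Cxcl16, a transmembrane chemokine (-0.41), and Cxcr4, the receptor for CXCL12 (-0.62). Second probes gave -0.28 for Cxcl16 and 0.02 for Cxcr4. Il1b, the interleukin 1β gene and the only 1 of 16 genes of its family and the inflammasome without overlap, stood at 1.74, 0.64, 1.00 and 0.32 with IGF1, against 2.57, 2.28, 2.76 and 1.94 with vehicle (difference -1.46, SE 0.42, adjusted p = 0.285). Of 20 genes of the TNF and NF-kB response, 2 were lower without overlap and the median was -0.17. Among them Ptgs2, the inducible cyclooxygenase, had -1.01 (SE 0.35) with arrays that overlapped. Genes of the type I interferon response had a median of 0.14 over 21 genes, with 0 free of overlap, and the slides with both treatments gave medians of -0.23 and 0.57. Their mean was 1.19, 0.88, 1.02 and 2.02 on the IGF1 arrays and 0.99 to 1.34 on the vehicle arrays, so that IGF1 replicate 4 was the highest.

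Of 19 CC chemokine and receptor genes, 3 had all IGF1 arrays below all vehicle arrays, and the median was -0.38. Ccr2, the receptor that brings monocytes out of the marrow, stood at 0.83, 1.14, 1.07 and 0.72 with IGF1, against 1.66, 1.55, 1.70 and 1.61 with vehicle (difference -0.69, SE 0.15, adjusted p = 0.209). The 4 vehicle arrays lay close together and the IGF1 arrays were all lower. Cx3cr1, the fractalkine receptor of patrolling monocytes and macrophages, had -0.77 (SE 0.27), while a second probe gave -0.34. Ccl11, an eosinophil chemokine made by fibroblasts, had -1.11 (SE 0.38). Immediate early genes had a median of -0.18 over 22 genes, 3 of them with all IGF1 arrays lower. They were Junb, the AP-1 subunit Fosl2 (-0.41, SE 0.14) and Ier3. A second probe for Fosl2 gave -0.12. Fos, another AP-1 subunit, had -0.65 (SE 0.18), with 1 IGF1 array above the lowest vehicle array. Zfp36, which is in none of the lists and whose product speeds the decay of cytokine mRNAs, had -0.40 (SE 0.10, adjusted p = 0.211) without overlap. None of these genes passed the adjusted test.

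The genes of MHC class II antigen presentation had 8 of 11 members without overlap, all of them lower with IGF1, the largest share among the 57 lists examined, and a median of -0.71. The lists were chosen with earlier results of these data known, and members measured on the same arrays are not independent of each other. H2-Ab1, the class II β chain, stood at 4.06, 4.34, 4.20 and 3.60 with IGF1, against 4.65, 4.82, 4.96 and 4.90 with vehicle. The difference was -0.78 (SE 0.24, adjusted p = 0.343), and 3 further probes gave -0.79, -0.76 and -0.77. Ciita, the transcriptional activator that class II genes require, stood at 0.19, 0.41, 0.29 and -0.55 with IGF1, against 0.86, 0.95, 0.69 and 0.78 with vehicle (-0.73, SE 0.26, adjusted p = 0.435). IGF1 replicate 4 was the lowest array for both genes. The invariant chain Cd74 had -0.70, H2-Eb1 -0.73, H2-Aa -0.60, the peptide exchange factor subunit H2-DMb1 -0.60, and its modulators H2-Oa and H2-Ob -0.86 and -0.71. On the slide with 2 arrays of each treatment the list median was -0.50, and on the slide with 3 arrays it was -0.81. Of the 11 genes, 2 were below background on all 8 arrays.

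Markers of dendritic cells, which present antigen through class II, had a median of -0.48 over 15 genes, and 5 were lower without overlap. The costimulatory ligand gene Cd86 stood at -0.80, -0.80, -0.84 and -1.25 with IGF1, against -0.35, -0.47, -0.47 and -0.41 with vehicle (-0.50, SE 0.11, adjusted p = 0.209). Further probes for Cd86 gave -0.31 and -0.24. Kmo, an enzyme of tryptophan breakdown, had -0.66 (SE 0.16), the maturation marker Cd83 -0.58 (SE 0.20), and the dendritic cell growth factor receptor Flt3 -0.64 (SE 0.23). Cd209a, a lectin of monocyte-derived dendritic cells, had -1.11 (SE 0.43) with arrays that overlapped.

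Lymphocyte genes held the second gene that passed. Cd7, found on T and NK cells, stood at -3.94, -3.58, -3.43 and -4.58 with IGF1, against -2.53, -2.55, -2.41 and -2.50 with vehicle. It was well above background on 3 of 4 IGF1 arrays and on all 4 vehicle arrays. Cd7 fell 2.61-fold (log2 -1.39, SE 0.20, adjusted p = 0.00648), and the slides that held both treatments gave -1.22 and -1.60. Its call was lost with the replicate number as a block (adjusted p = 0.0719) and in the same fits of 48 h alone that ended that of Il6 (0.326 and 0.376), with 0.00418 as the lowest adjusted p over the alternatives. With normexp background correction its difference was -0.68, still past the threshold.

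All 21 measured T cell markers had a difference below 0, with a median of -0.34, but 2 of 21 had groups that did not overlap, Cd7 and Cd3e. Cd3e, a chain of the T cell receptor complex, had -0.34 (SE 0.12) with its brightest probe and -0.97 with a dimmer one. The T cell receptor kinase Lck had -0.41 (SE 0.16) and Cd5 -0.56 (SE 0.20), both with overlap. Of 14 NK and cytotoxic cell markers, 5 were below background on all 8 arrays and 2 were lower without overlap, with a median of -0.33. Klrd1, which encodes the NK receptor chain CD94, stood at -2.46, -2.20, -2.54 and -3.51 with IGF1, against -1.90, -1.43, -1.72 and -1.62 with vehicle (-1.01, SE 0.22, adjusted p = 0.209). Outside that list, Cd226, an activating receptor of NK and T cells, was well above background on 1 of 4 IGF1 arrays and on 4 of 4 vehicle arrays (-1.46, SE 0.29, adjusted p = 0.198), while a second probe gave -0.08. Gpr171, a G protein-coupled receptor of T cells, had -0.96 (SE 0.21).

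Of 11 B cell markers 3 were lower without overlap, with a median of -0.50. Pax5, the transcription factor that fixes B cell identity, had the smallest p after Il6 and Cd7. It stood at -3.97, -4.13, -4.10 and -4.09 with IGF1, 3 of them above background, against -2.91, -2.61, -3.42 and -3.32 with vehicle (-1.01, SE 0.18, adjusted p = 0.119). The adjusted p was 0.0408 with slide as a fixed block, 0.0733 with slide as a random block and 0.00341 with array weights. With normexp correction the difference of Pax5 was -0.54. Spib, a B cell and plasmacytoid dendritic cell factor, had -0.83 (SE 0.27) and the B cell receptor chain Cd79b -0.54 (SE 0.24). The exception was Ebf1, which B cells share with pericytes and fat precursors, at 0.22 (SE 0.08), with all IGF1 arrays above the vehicle arrays.

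Macrophage and monocyte genes had differences in both directions, with list medians between -0.28 and -0.08. Of 17 monocyte markers 3 were lower without overlap (median -0.28), of 18 resident macrophage markers 2 (median -0.08) and of 19 genes of efferocytosis and lipid handling 3 (median -0.22). Above 0 were 5, 5 and 6 members of the 3 lists, among them Vsig4, a complement receptor of resident macrophages, at 0.80 (SE 0.35, adjusted p = 0.533) with arrays that overlapped. Ms4a7, a membrane protein of tissue macrophages, stood at 3.28, 3.24, 3.41 and 2.81 with IGF1, against 4.03, 4.07, 3.98 and 3.66 with vehicle (-0.75, SE 0.18, adjusted p = 0.209). Fcrls, an Fc receptor-like gene of macrophages, had -1.11 (SE 0.27), and Clec4n, which encodes the fungal receptor dectin-2, had -0.94 (SE 0.23). Il10ra, the receptor chain for the anti-inflammatory interleukin 10, stood at 0.69, 0.35, 0.80 and 0.50 with IGF1, against 1.17, 1.13, 1.5 and 1.13 with vehicle (-0.65, SE 0.13, adjusted p = 0.209), and a second probe gave -0.66. Csf1r, the receptor for the macrophage growth factor, had -0.28 (SE 0.09) without overlap, but -0.02 with a second probe. The lysosomal genes Ctsd, a protease, and Sgsh, a sulfatase, had -0.49 (SE 0.11) and -0.47 (SE 0.10), and the liver X receptor gene Nr1h3 had -0.25 (SE 0.10).

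Neutrophil markers had a median of 0.06 over 20 genes, 0 were lower and 1 was higher without overlap, and the list mean was -0.24 to 0.30 on the IGF1 arrays and -0.31 to 0.34 on the vehicle arrays. The slide with 2 arrays of each treatment gave a median of 0.05 and the slide with 3 arrays gave -0.24. Across the alternatives this median ran from -0.24 to 0.14. Genes for handling heme and iron, released from blood and dying muscle, were lower in part. Hmox1, which breaks down heme, had -0.56 (SE 0.18), and the ferritin chains Ftl1 and Fth1 had -0.29 (SE 0.08) and -0.18 (SE 0.06), each without overlap. The peroxide-degrading catalase gene Cat, of the same list, had 0.31 (SE 0.14) in the opposite order. Across the alternatives the difference of Ftl1 ran from -0.34 to -0.09 and that of Fth1 from -0.21 to -0.0039.

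**Figure D3:**
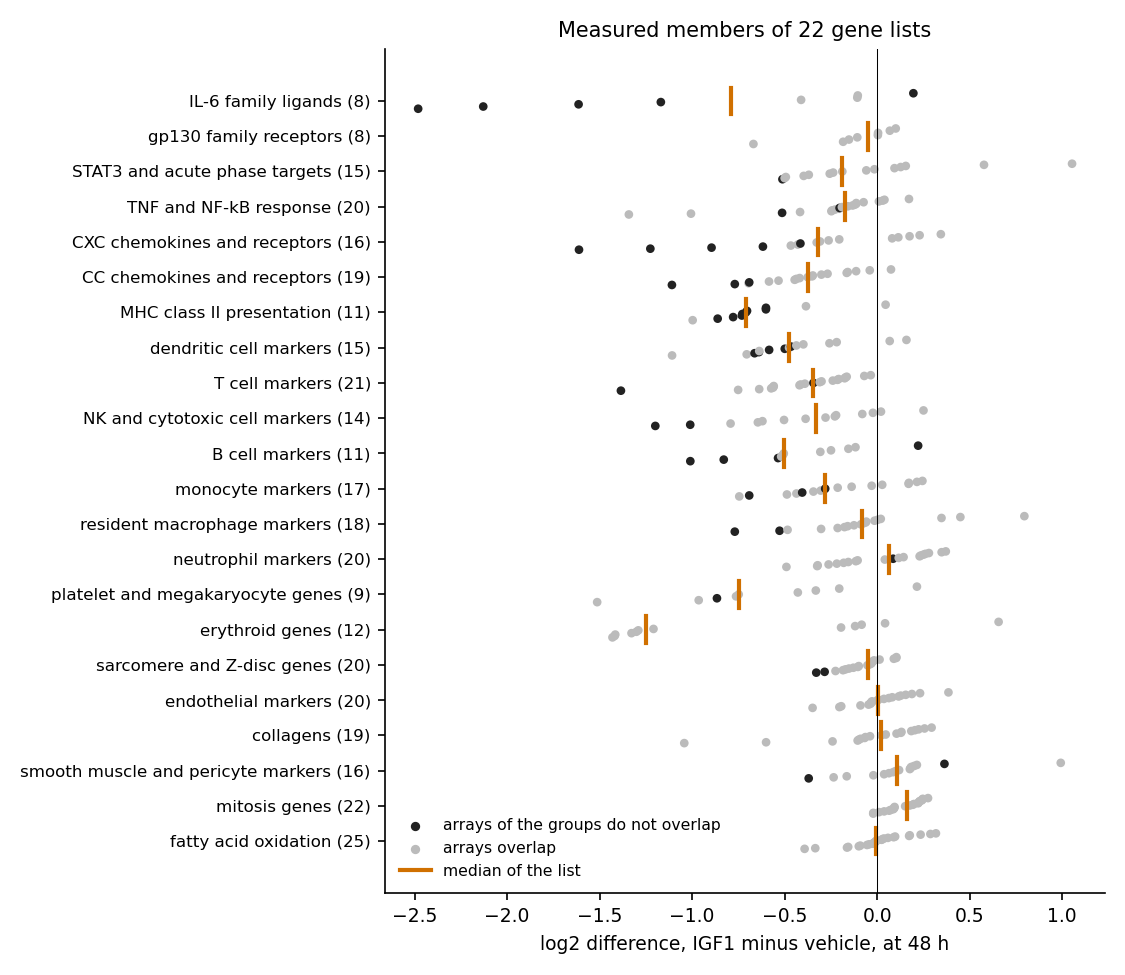
Log2 difference (IGF1 minus vehicle at 48 h) of each measured member of 22 gene lists, whose numbers of measured members stand in parentheses. Black points are genes whose 4 IGF1 and 4 vehicle arrays do not overlap, and orange bars are list medians, which run from -1.25 for erythroid genes and -0.79 for interleukin 6 family ligands to 0.16 for mitosis genes.

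Genes of red cells and platelets had list medians below 0. Of 12 erythroid genes 10 had a difference below 0, with a median of -1.25, and 0 of 12 had groups that did not overlap. Hba-a1, whose sequence is shared with Hba-a2 so that a probe may read both, stood at 8.43, 6.51, 6.71 and 6.77 with IGF1, against 8.39, 8.48, 8.15 and 8.57 with vehicle. IGF1 replicate 1 was as high as the vehicle arrays and the other 3 IGF1 arrays were lower. Of 9 platelet and megakaryocyte genes 8 were below 0 (median -0.75), among them the von Willebrand factor receptor chain Gp9 (-1.51, SE 0.67) and the platelet receptor Treml1 (-0.87, SE 0.36). The mean of the erythroid list was 0.36 to 1.45 on the IGF1 arrays and 1.04 to 2.00 on the vehicle arrays, and that of the platelet list was -1.44 to -0.63 and -0.60 to -0.24. The highest IGF1 array of both lists was replicate 1, which was also the highest IGF1 array for Il6, Il11 and Lif. How far blood left in the tissue bears on the cytokine and leukocyte values was not tested.

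**Figure D4:**
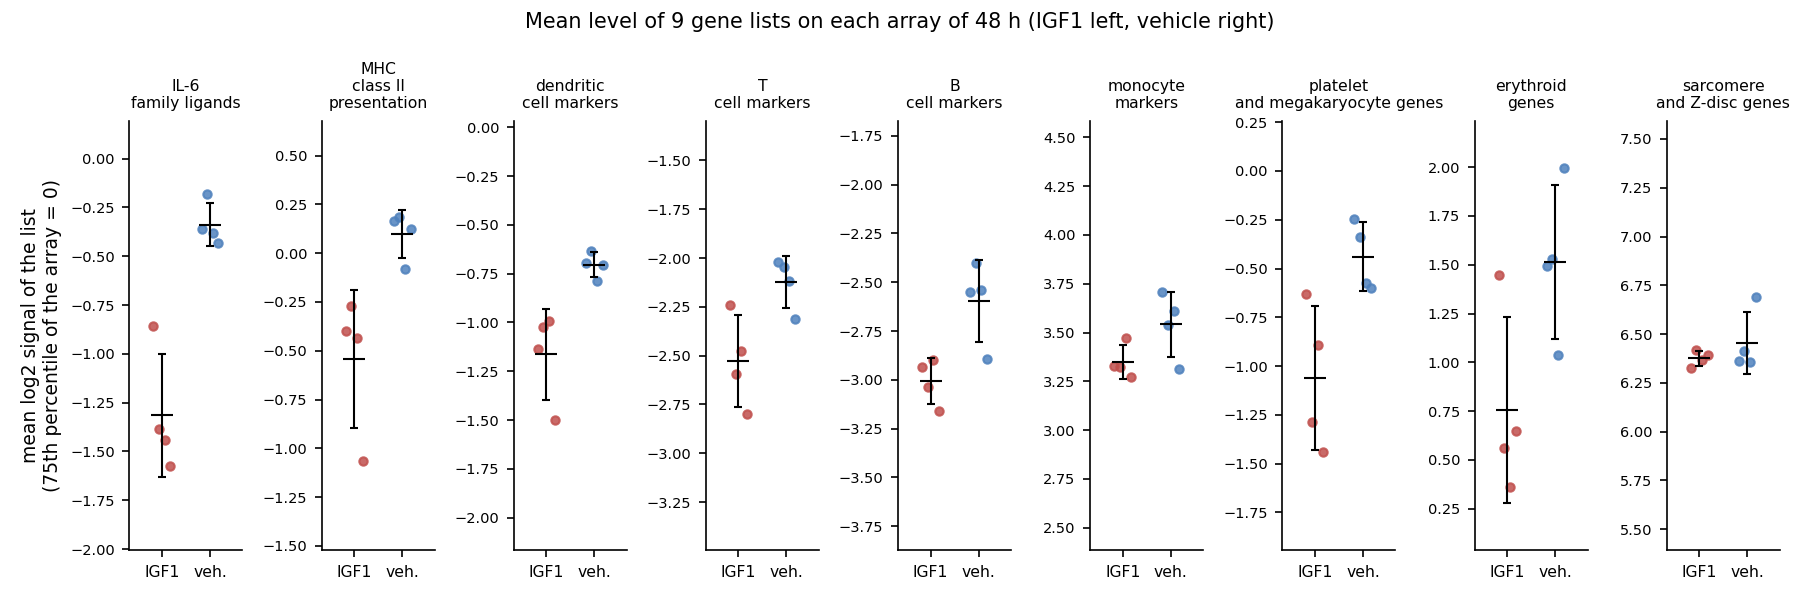
Mean log2 signal of 9 gene lists on each array, IGF1 left of vehicle, with the mean of the 4 arrays and its SD in black and the same span of 2.2 units on every vertical axis. The groups do not overlap for the interleukin 6 family, MHC class II, dendritic cell, B cell and platelet lists, and overlap for the T cell, monocyte, erythroid and sarcomere lists. The highest IGF1 and lowest vehicle means nearly meet for the B cell list (-2.897 and -2.894) and the platelet list (-0.63 and -0.60). For the interleukin 6 family they are -0.86 and -0.43.

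By the counts above, fewer genes were higher with IGF1 than lower, although quantile normalization turned this at an unadjusted p under 0.05 (724 higher and 649 lower). The highest difference of all genes, named after its value was seen, was that of the water channel gene Aqp5, at -3.73, -6.35, -4.08 and -2.55 with IGF1, 3 of them above background, against -6.21, -6.46, -6.00 and -6.12 with vehicle, none above background. The arrays overlapped, no bound against the lowest measurable signal could be given, and a second probe for Aqp5 gave -0.07. Chrm2, the muscarinic receptor through which the vagus slows the heart, stood at 1.27, 1.36, 1.36 and 1.84 with IGF1, against 0.82, 0.99, 0.72 and 0.99 with vehicle (0.58, SE 0.14, adjusted p = 0.211). Acer2, a ceramidase of the Golgi, stood at -0.86, -1.02, -1.0 and -0.57 with IGF1, against -1.57, -1.65, -1.95 and -1.39 with vehicle (0.78, SE 0.19, adjusted p = 0.224). Phka2, a regulatory subunit of phosphorylase kinase, had 0.30 (SE 0.08) and passed with slide as a fixed block (adjusted p = 0.0496), while its other probes gave 0.38 and -0.14. Further genes with all IGF1 arrays higher were Npr3, the clearance receptor for natriuretic peptides (0.53, SE 0.14), the cardiac transcription factor Gata6 (0.46, SE 0.13), the dystrophin gene Dmd (0.41, SE 0.11), and Myocd, the coactivator of smooth and cardiac muscle genes (0.36, SE 0.11). Other probes gave 0.29 for Npr3, and 0.30 and 0.26 for Dmd. Spock2, a matrix proteoglycan, had 0.86 (SE 0.21) and was well above background on 3 of 4 vehicle arrays.

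Structural lists of the heart had small medians. The median was -0.05 for 20 sarcomere and Z-disc genes, 0.00 for 20 endothelial markers, 0.02 for 19 collagens, 0.04 for 19 markers of activated fibroblasts and 0.11 for 16 smooth muscle and pericyte markers. Of the sarcomere genes 16 were below 0, and 2 of 20 were lower without overlap (3.33% over all genes). Of the smooth muscle and pericyte markers 12 were above 0, with 1 higher and 1 lower without overlap. Their list mean did not overlap, at 2.82 to 2.94 with IGF1 and 2.67 to 2.81 with vehicle. Thbs1, which encodes the matrix protein thrombospondin 1, stood apart from the list of activated fibroblasts. It stood at 3.69, 3.55, 3.31 and 2.76 with IGF1, against 4.59, 4.49, 4.15 and 3.91 with vehicle (-0.96, SE 0.23, adjusted p = 0.209), and a second probe gave -1.20. Myh7, the fetal myosin heavy chain that returns under load, stood at 5.04, 5.89, 5.87 and 4.89 with IGF1, against 6.16, 6.40, 6.25 and 6.54 with vehicle (-0.91, SE 0.38, adjusted p = 0.494).

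The signalling axis of the hormone showed 1 of 21 genes without overlap, the binding protein gene Igfbp6 (-0.36, SE 0.13), and a list median of -0.04. The heart's own Igf1 transcript had a difference of 0.08 (SE 0.16) and that of the receptor, Igf1r, 0.20 (SE 0.16). Genes that FoxO transcription factors control, which AKT holds out of the nucleus, had a median of -0.03 over 24 genes. The 2 of them with all IGF1 arrays higher were Cat and Depp1, an autophagy regulator (0.65, SE 0.21).

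The IGF1 effect at 48 h was set against that at 24 h and 168 h, each measured on its own 8 arrays. For Il6 the differences were -0.22 at 24 h, -2.48 at 48 h and 0.09 at 168 h. The effect at 48 h was lower than that at 24 h by -2.26 and than that at 168 h by -2.57, and neither contrast passed (adjusted p = 0.0607 and 0.16). Il11 had -0.59, -2.13 and 0.21 and Lif -0.67, -1.61 and 0.20 at 24, 48 and 168 h. Neither contrast passed limma's test for Il11 (adjusted p = 0.208 against 24 h and 0.238 against 168 h), nor for Lif or Osm. Cd7, by contrast, was nearly the same at 24 h and 48 h (-1.47 and -1.39) and had -0.16 at 168 h. H2-Ab1 had -1.20, -0.78 and -0.73, and the median of the class II list was -1.12, -0.71 and -0.55, with 11, 10 and 9 of 11 members below 0.

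For 11 genes (0.0693% of genes tested) the effect at 48 h differed from that at 24 h at an adjusted p under 0.05, 9 with a lower and 2 with a higher effect at 48 h. Of these, 8 are named here because they passed, after their values were seen. Tacc2, a centrosomal protein gene with a muscle form, had 1.47 at 24 h and -0.29 at 48 h (contrast -1.76, adjusted p = 0.00598). At 48 h Tacc2 stood at 3.80, 3.80, 3.72 and 3.48 with IGF1, against 3.99, 4.11, 3.68 and 4.18 with vehicle. S100a1, a calcium sensor of heart muscle, had 0.59 at 24 h and -0.26 at 48 h, and Camk2b, a calmodulin-dependent kinase, had 0.48 and -0.28. The phosphatase gene Ptp4a1, the co-chaperone gene Tsacc and Gm17745 had 0.44, 0.40 and 0.86 at 24 h and -0.09, -0.33 and -0.37 at 48 h. The 2 in the other direction were Ncapg2, a condensin subunit needed in mitosis (-0.99 and 0.08), and Spns3 (-2.09 and 0.09), which was above background on 2 of 4 IGF1 and 1 of 4 vehicle arrays at 48 h. A second probe for Camk2b gave 0.42 at 48 h. Other probes at 48 h gave -0.58 and -0.02 for Tacc2, and -0.18, 0.05, -0.22 and 0.11 for Ptp4a1. The count was 275 without vehicle replicate 3 and 2 without IGF1 replicate 4.

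For 0 genes (0%) did the effect at 48 h differ from that at 168 h in limma's test, with 706 lower and 376 higher at an unadjusted p under 0.05, and 56 passed when arrays were weighted by quality. Fatty acid oxidation and mitosis genes stood farther from 0 at 24 h than at 48 h. Fatty acid oxidation had a median of 0.71 at 24 h, -0.01 at 48 h and -0.14 at 168 h over 25 genes, and mitosis genes had -1.09, 0.16 and 0.30 over 22. At 48 h 20 of the 22 mitosis genes were above 0, by at most 0.27, and none of them reached an unadjusted p under 0.05.

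**Figure D5:**
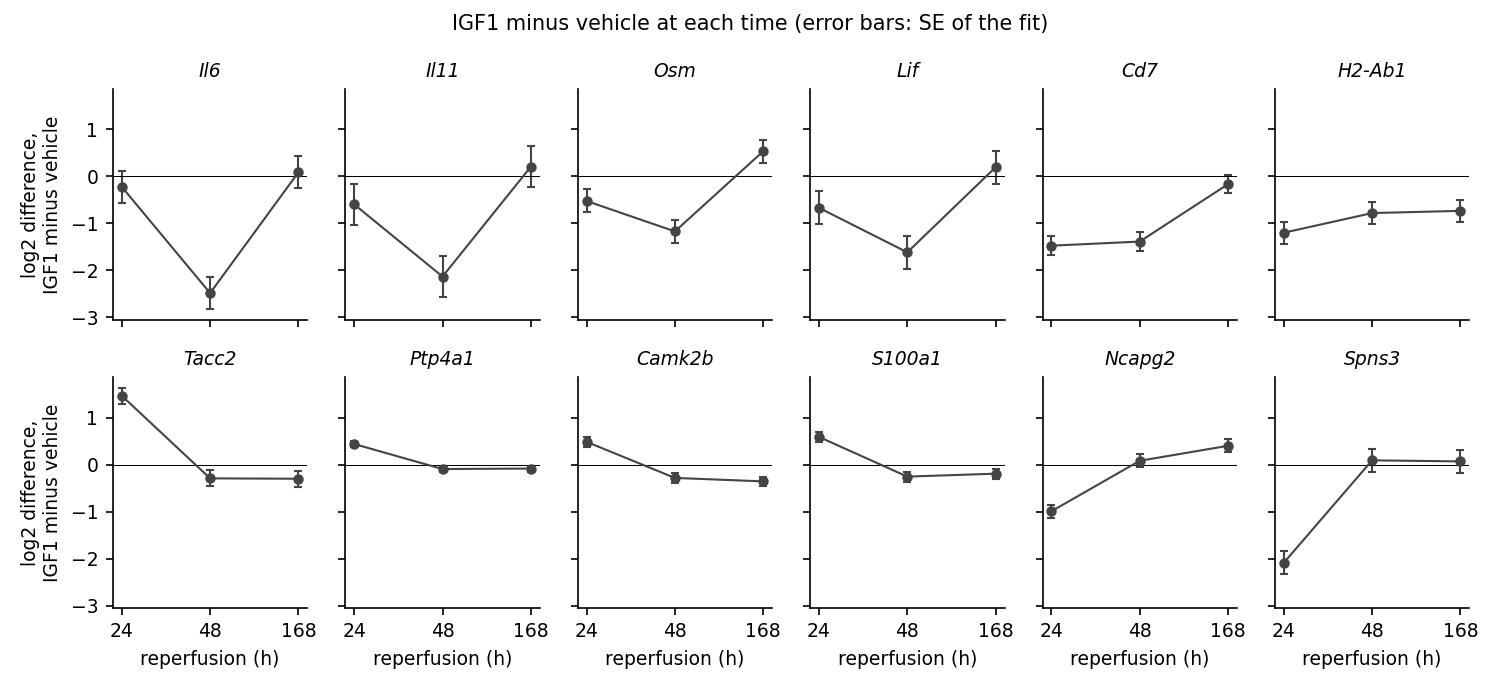
Log2 difference (IGF1 minus vehicle) at 24, 48 and 168 h of reperfusion for 12 genes, with error bars of 1 SE of the fit and 8 arrays behind each point. Il6 has -2.48 at 48 h and lies within 0.22 of 0 at the other times, while Tacc2, Ptp4a1, Camk2b, S100a1, Ncapg2 and Spns3 lie farther from 0 at 24 h than at 48 h, when they are within 0.29 of it.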

How the data were processed

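Each of the 24 scanner files holds 1 one-colour (Cy3) array read by Agilent Feature Extraction 12.0.3.2, whose processed signal is a linear intensity corrected for background within the array (per the file headers, with no scaling across arrays). The deposited value table of 33957 probes holds log2 values centred per probe by the authors. After centring of each probe it differed from the measure used here by an array median of at most 0.00253, its column medians were -0.0557 to 0.0527, and how it was centred is not given in the sources used here. Control spots and outlier spots were left out, 0 spots were saturated, spots of a probe were averaged, and log2 signal minus the 75th percentile over probes was the measure. Probes well above background on at least 4 of 24 arrays were kept, and the brightest stood for its gene. RefSeq symbols were matched by accession: 33767 of 56605 probes had 1, 0 several and 22838 none here. Of 15875 genes, 5925 had more than 1 kept probe and 24 had no value on at least 1 array.

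Limma 3.58.1 in R 4.3.3 (lmFit with 6 group means over all 24 arrays, 18 residual degrees of freedom, eBayes, two-sided, Benjamini-Hochberg over all genes, threshold 0.05) gave all p-values, and tests on simulated data for the 48 h comparison called 89 of 100 genes shifted by 2 log2 units and 88 of 100 shifted by 1, among 15851 genes with 13 false calls. In the simulation 100 genes of each size were shifted together, and the adjusted threshold depends on how many genes change. Those shares therefore do not carry over to the real 48 h comparison, in which 2 genes passed. The 4 arrays per group limit the precision. A gene above background on no array of a group, but on some array of the other, has a bound, "at least N-fold", if that bound exceeds 1. Slides come from the file names and scan days from the headers: 1 slide held 2 arrays of each treatment, 1 held 2 IGF1 arrays and 1 vehicle array, and 1 held 1 vehicle array. Arrays correlated across genes at r = 0.990 to 0.993 within IGF1, 0.985 to 0.992 within vehicle and 0.985 to 0.993 between IGF1 and vehicle.

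The 57 lists (949 genes, 866 measured), the genes compared and the rule for naming genes were chosen with earlier results of these data known. The rule took every gene past the threshold, the non-overlapping genes with the smallest p (15 in each direction) or the largest difference (10 in each direction), clone and predicted names aside, up to 4 members of each list by p, and the interleukin 6 family, its receptors and the IGF axis; the text gives a part of these. Alternatives were normexp background correction (offset 50, on the median signal), quantile normalization, filters on dim probes, the mean of probes, all probes, the value table, array weights, slide, scan day and replicate blocks, 48 h alone and the omission of each 48 h array. Some genes are not reported here.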

Additional observations from a re-analysis of the deposited data

Results flagged for a closer look

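Of 296 groups of 4 arrays examined (the genes and list means the text uses), 15 (5.07%) had an array far from the other 3, where chance gives about 1 in 20. IGF1 replicate 4 was the lowest for Fcrls (-0.15, the others 0.84 to 0.88; gap over range 0.961), Cd86 (-1.25, the others -0.84 to -0.80; 0.907), Ftl1 (8.20, the others 8.38 to 8.41; 0.887) and the mean of the CC chemokine list (0.94, the others 1.57 to 1.63; 0.907), and the highest for Chrm2 (1.84, the others 1.27 to 1.36; 0.837). Vehicle replicate 3 was the highest for Lst1 (0.932), Il10ra (0.881) and Sgsh (0.867) and the lowest for Cntf (0.858), Phka2 (0.852) and H2-Aa (0.842). IGF1 replicate 1 was the highest for Hba-a1 (8.43, the others 6.51 to 6.77; 0.864), IGF1 replicate 2 the highest for Il4i1 (0.842), vehicle replicate 2 the highest for Clcf1 (-0.53, the others -1.79 to -1.60; 0.842) and vehicle replicate 4 the lowest for Cxcl3 (0.26, the others 0.69 to 0.75; 0.891).

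The IGF1 effect differed between 48 h and 24 h in limma's interaction test for Tacc2 (adjusted p = 0.00598), Spns3 (0.0154), Ptp4a1 (0.0275), Tsacc (0.0329), and Gm17745, Camk2b, S100a1 and Ncapg2 (each 0.0334).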

How the results depend on the processing

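At 48 h, 2 genes passed, and the count was 56 with slide as a fixed block, 2 with slide as a random block and 4 without IGF1 replicate 1. It was 0 both with the 8 arrays of 48 h alone and with the 7 arrays of the slides that held both treatments. Leaving out 1 array gave 2 to 4. The 11 genes whose effect differed between 48 h and 24 h became 1 with normexp correction, 5 with quantile normalization, 3 with no filter on dim probes, 17 with a stricter one, 3 with all kept probes counted singly, 318 with array weights, 17 with slide as a fixed and 132 as a random block. Leaving out 1 array gave 2 to 275: 275 without vehicle replicate 3, 7, 3, 6 and 2 without IGF1 replicates 1, 2, 3 and 4, and 3 without vehicle replicate 4. Between 48 h and 168 h the count of 0 became 56 with array weights, and leaving out 1 array gave 0 to 2, with 2 without IGF1 replicate 1. With a replicate block the 3 counts were 2, 19 and 1. Deviations of arrays sharing a number correlated at 0.103, 0.065, -0.0053 and 0.112, and those of unlike numbers at -0.166 to 0.0893. The values 0.112 and 0.103 were the highest of all pairs. The numbers were treated as names, though these values cannot exclude a pairing. Quantile normalization turned the split at an unadjusted p under 0.05, with 724 genes higher and 649 lower. Of 113 genes examined, 109 kept their direction under each alternative that measured them. The others turned: Spns3 with normexp (-0.026) and over omitted arrays (-0.13 to 0.20), Camk2b with the mean of its probes (0.069), Ctf1 with slide as a block (0.075), with 2 slides (0.18) and over omitted arrays (-0.34 to 0.11), and Igf1 over omitted arrays (-0.0065 to 0.19). The causes were not tested. The percentile over all spots and scan day as a block were added after seeing the data. Normexp was run on the median rather than the mean signal. Probes near background limit Lif, Cd7, Pax5, Cd226 and Spns3.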
